A study of Mus musculus with 8 samples.

Results

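Fgf21, Gdf15 and a small group of genes around them encode hormones and growth factors of stressed or remodelling tissue and the receptors that read them. Fibroblast growth factor 21 (FGF21) is a secreted metabolic hormone that signals in adipocytes through FGF receptor 1 bound to the coreceptor β-Klotho, and its gene is a known target of the stress transcription factor ATF4 and of the PPAR receptors. GDF15 is a distant TGF-β family member induced by cell stress, whose receptor GFRAL is in the hindbrain. The stanniocalcins STC1 and STC2 are secreted glycoproteins that inhibit the protease PAPP-A and so limit the release of insulin-like growth factors from their binding proteins. The set was chosen as 9 genes, Fgf21, Klb, Fgfr1, Fgf1, Fgf10, Gdf15, Stc1, Stc2 and Angptl6, each read from its brightest probe set that names that gene alone. Of these 9 genes, 7 were measured among the 18820 genes compared. No probe set was annotated to Gdf15, and the 2 probe sets of Angptl6 were also annotated to Shfl, so both genes are not analysed here.

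RNA came from white adipose tissue of 8 male mice, 1 array per mouse, after 5 weeks on a high fat diet. The 4 Sel1l-/- mice came from a cross of mice with a floxed Sel1l gene to mice whose Cre recombinase is driven by the promoter of adiponectin, a gene of adipocytes, and the 4 wildtype (WT) mice had the same sex and diet. The strain was C57BL/6, with the N and J substrains mixed. Sel1l encodes a membrane protein that partners the ubiquitin ligase Hrd1 in clearing misfolded proteins from the endoplasmic reticulum (ER). The sources used here do not give the age of the mice, the fat depot, or whether WT mice carried the floxed allele or Cre. The deletion was directed at adipocytes only, while the RNA came from whole tissue, so the other cells of the tissue keep the gene, and fewer cells of a type cannot be told apart from less RNA per cell.

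Median log2 intensities were 6.10 to 6.14 in Sel1l-/- mice and 6.05 to 6.08 in WT mice. The submitters' quantile normalization brings arrays to nearly the same brightness, so these medians are no check of the arrays. The small difference left put every Sel1l-/- median above every WT median, and results with arrays centred on their medians are given below. Sel1l itself read 9.56, 9.78, 9.72 and 10.07 in Sel1l-/- mice 1 to 4, against 10.48, 10.57, 10.58 and 10.65 in WT mice 1 to 4, with no overlap between the groups. It was 1.73-fold lower in Sel1l-/- mice (limma adjusted p = 0.0109), with a log2 fold change of -0.79 and a standard error of 0.10. The tissue had the transcripts of adipocytes, since 9 measured adipocyte markers averaged 12.34 to 12.65 log2 units in Sel1l-/- arrays and 12.57 to 12.79 in WT arrays. Endothelial markers were lower as a group, with all 10 measured genes at negative fold changes and mean levels of 9.65 to 10.02 in Sel1l-/- arrays against 10.17 to 10.42 in WT arrays, and 1 of them, Pecam1, fell past the threshold (log2 fold change -0.39, limma adjusted p = 0.029).

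Of the 7 measured genes, 1 was higher in Sel1l-/- adipose tissue at a limma adjusted p under 0.05, 0 were lower and 6 did not pass. Over all 18820 genes, 1.72% passed in either direction, 1.04% as higher and 0.685% as lower. The gene that rose was Fgf21, and it was also the single gene of the 7 whose Sel1l-/- and WT arrays did not overlap, where 10.3% of all genes had such arrays. The median log2 fold change of the 7 genes was -0.14, against 0.00 over all genes. Of the 7 genes, 2 had positive and 5 had negative fold changes, and 1 had an unadjusted p under 0.05.

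Fgf21 rose in fat of Sel1l-/- mice. Its log2 intensity was 5.90, 5.60, 5.62 and 5.74 in Sel1l-/- mice 1 to 4, against 5.21, 5.11, 5.25 and 5.12 in WT mice 1 to 4. Every Sel1l-/- array lay above every WT array, the lowest at 5.60 against the highest WT array at 5.25. The means were 5.71 ± 0.14 in Sel1l-/- and 5.17 ± 0.07 in WT mice (SD, n = 4 each). The 95% interval of the rise, 1.46-fold, ran from 1.29-fold to 1.65-fold (log2 fold change 0.54 ± 0.08, SE; limma adjusted p = 0.0159). The differences of the 4 same-numbered pairs of mice were 0.69, 0.49, 0.37 and 0.62 log2 units. No label pairs the mice, and without overlap any pairing gives positive differences, so their sign adds no support. All of its values were low on the scale of these arrays. They lay below the array medians of all probe sets, 6.05 to 6.14, and above the lower quartile, which was 4.33 to 4.37. The table holds no detection call, so how much of the signal in either group is background was not tested.

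Fgf21 did not keep its call under every setting. Its log2 fold change stayed between 0.48 and 0.58 when any 1 array was left out, and it passed in 6 of these 8 fits. The limma adjusted p was 0.0561 without WT 1 and 0.059 without WT 2. In those fits 100 and 122 of all genes passed, against 324 on 8 arrays. The labels give each mouse a code of a letter and a number whose meaning is not given in the sources used here. Letter E holds only WT mice and letter G only Sel1l-/- mice, so a fit with the letter as a block takes its difference from letter F alone. Letter F holds Sel1l-/- 1 and 2 and WT 4. The log2 fold change with the letter block was 0.63, which rests on that 1 WT array, and Fgf21 was not called. With the number as a block it was 0.52 (limma adjusted p = 0.1). The difference was 0.45 within number 5, 0.71 within number 7 and 0.36 within number 9.

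**Figure D1:**
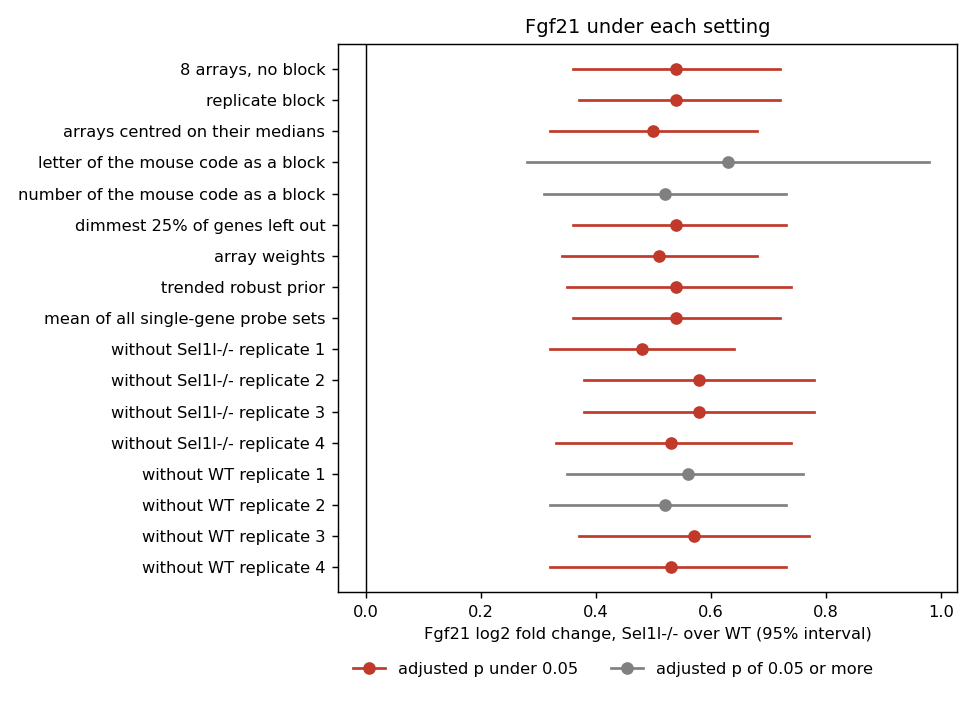
Log2 fold change of Fgf21, Sel1l-/- over WT (x axis, log2 units), with 95% intervals, for the fit on 8 arrays and for each alternative that measured it (y axis). Red points have a limma adjusted p under 0.05 and grey points do not. The values ran from 0.48 to 0.63, every interval lay above 0, and the call was absent with both mouse code blocks and without WT 1 or WT 2.

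Fgf21 is also made in liver and pancreas, so markers of both organs were read. The 7 measured pancreatic acinar markers averaged 4.39 to 4.52 log2 units in Sel1l-/- arrays and 4.28 to 4.50 in WT arrays. None of them passed the test, and the brightest, Cela1, an elastase gene, read 6.79 to 7.52 in Sel1l-/- arrays and 5.93 to 7.17 in WT arrays (log2 fold change 0.57, limma adjusted p = 0.366). The 9 measured hepatocyte markers averaged 5.35 to 5.52 in Sel1l-/- arrays and 5.53 to 5.83 in WT arrays, with 0 past the test, and 1 lower in a fit that pairs mice by replicate number (the replicate block). The brightest of them, Cyp2e1, a cytochrome P450 gene, read 9.99 to 10.83 in Sel1l-/- arrays and 10.47 to 12.49 in WT arrays (log2 fold change -1.32, limma adjusted p = 0.167). Its lowest value lay above every value of the other markers of that list, so Cyp2e1 raises the averages given. Whether hepatocytes gave its signal was not tested. Alb, the albumin gene that defines hepatocytes, read 5.64 to 6.62 in Sel1l-/- arrays and 6.25 to 7.56 in WT arrays (log2 fold change -0.69, limma adjusted p = 0.347). Ttr, the transthyretin gene of hepatocytes, read 3.58 to 4.06 in Sel1l-/- arrays and 3.50 to 3.75 in WT arrays, under that quartile on each. The part of either organ in the Fgf21 value was not tested.

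Stc2, like Fgf21, is known as a target of the ATF4 branch of the stress response, so the promoter windows of both genes are shown. Both are RefSeq sequences of build GRCm38.p6, each on the minus strand, from 250 bases before the gene's start to 50 after it. The window of Fgf21 is chr7:45615441-45615740 and that of Stc2 is chr11:31370012-31370311. Capitals mark matches to any of 6 motifs searched on both strands.
Fgf21: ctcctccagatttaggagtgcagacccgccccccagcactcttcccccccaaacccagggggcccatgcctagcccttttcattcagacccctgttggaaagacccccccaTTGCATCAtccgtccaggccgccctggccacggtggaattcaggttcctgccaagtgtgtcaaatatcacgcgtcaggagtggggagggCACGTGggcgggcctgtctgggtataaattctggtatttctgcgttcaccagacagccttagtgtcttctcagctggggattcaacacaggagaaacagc
Stc2: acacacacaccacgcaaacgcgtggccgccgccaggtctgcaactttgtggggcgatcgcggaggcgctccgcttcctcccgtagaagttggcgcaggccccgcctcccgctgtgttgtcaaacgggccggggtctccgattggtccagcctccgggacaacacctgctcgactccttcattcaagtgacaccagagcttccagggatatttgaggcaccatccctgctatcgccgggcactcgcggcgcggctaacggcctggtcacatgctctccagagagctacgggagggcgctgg
The Fgf21 window held the letters TTGCATCA, a composite site of ATF4 with C/EBP partners, 139 bases before the start (chr7:45615622-45615629). The same letters read on the other strand match the looser core TGATGNAA. Of 32851 promoter windows, 0.895% held TTGCATCA on either strand and 3.97% held TGATGNAA, which includes all of the first. The other capitals, 50 bases before the start, hold ACGTG, the core of hypoxia response elements, which overlaps itself on both strands there and occurred in 19.6% of windows. The other 3 motifs had no match in the Fgf21 window. They were the ER stress response element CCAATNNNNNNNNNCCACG (0.119% of windows), the XBP1 core TGACGTGG (0.676%) and the PPAR and RXR repeat AGGTCANAGGTCA (0.0396%). Windows of 4 of the 7 genes were searched, those of Fgfr1, Fgf1 and Stc1 were not, and none of the 6 motifs was found in the windows of Stc2, Klb and Fgf10. A match shows letters in a window, not binding of a factor. A window without a match can still hold a site with other letters, and sites outside the windows were not searched.

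Klb, which encodes β-Klotho, the coreceptor that lets FGF21 bind its receptor, varied more between mice than between genotypes. It read 9.89, 9.64, 9.64 and 8.91 in Sel1l-/- mice 1 to 4, against 9.60, 9.32, 9.54 and 8.53 in WT mice 1 to 4. The mouse numbered 4 was the lowest of its genotype in both groups, by 0.81 below the mean of the other 3 in Sel1l-/- and by 0.96 in WT mice, and the groups overlapped. The group means were 9.52 ± 0.42 in Sel1l-/- and 9.25 ± 0.49 in WT mice (SD, n = 4 each), a log2 fold change of 0.27 with a 95% interval of -0.36 to 0.90 (limma adjusted p = 0.713). Each Sel1l-/- mouse was above the WT mouse of its number, by 0.29, 0.31, 0.10 and 0.38. With the replicate number as a block the standard error fell to 0.07, against 0.27 without it, and the interval was 0.11 to 0.44. The limma adjusted p was 0.0842, so the call did not change. No label states these pairs. They were read from the same values that the block then fits, so the narrower interval is a description and not separate evidence of a rise. The 4 pairs shared 1 sign for 2 of the 7 genes, Fgf21 and Klb, and for 30.1% of all genes. For Fgf21 this follows from the lack of overlap between its groups.

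Fgfr1, the receptor kinase through which FGF21, FGF1 and other FGFs signal, had nearly equal values on all arrays. It read 10.95, 10.98, 11.00 and 10.96 in Sel1l-/- mice 1 to 4, and 11.21, 11.07, 11.21 and 10.94 in WT mice 1 to 4. The WT mouse numbered 4 was the lowest of all 8 and the other 3 WT mice were the highest, so the groups overlapped through 1 array. The log2 fold change was -0.14 with a 95% interval of -0.30 to 0.02 (limma adjusted p = 0.423), so a fall of more than 0.30 log2 units lay outside the interval. Its range over the 8 arrays, 0.27 log2 units, was the smallest of the 7 genes.

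**Figure D2:**
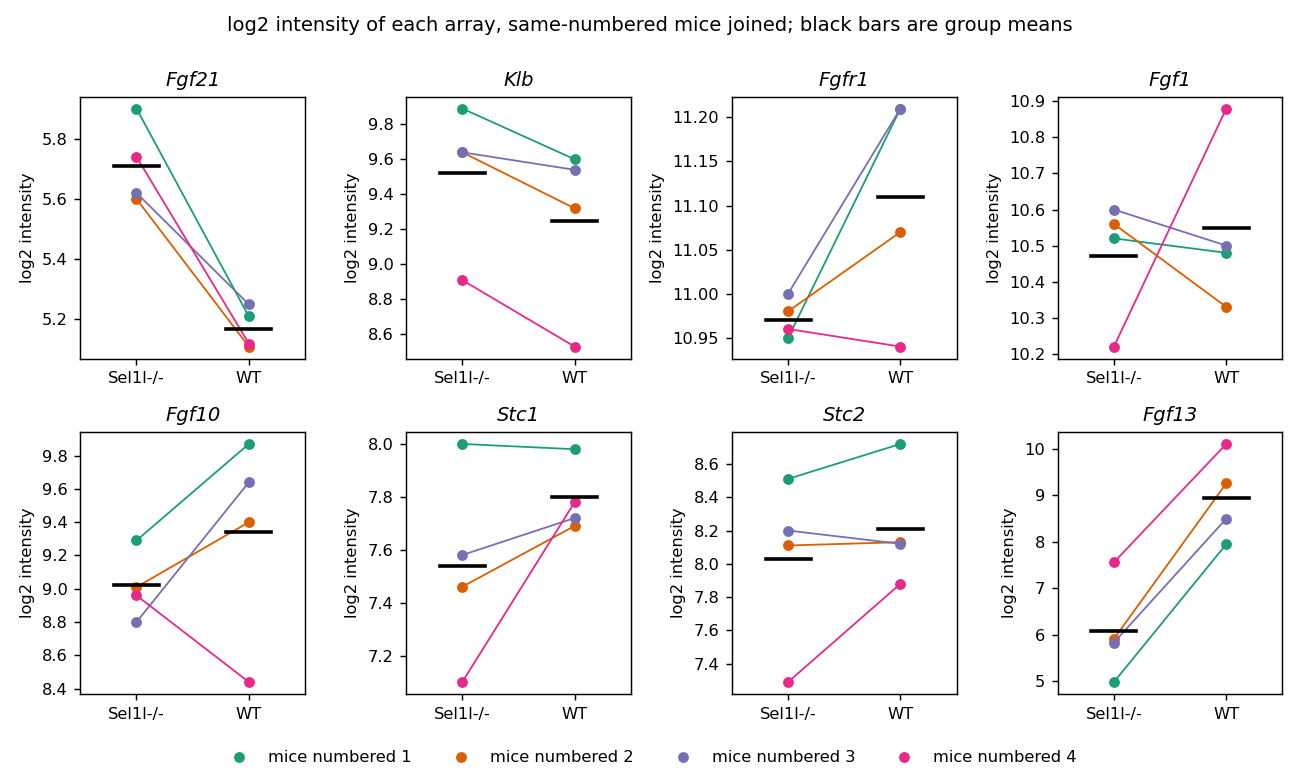
Log2 intensity (y axis, a scale of its own in each panel) of the 7 measured genes and of Fgf13 on each array, with Sel1l-/- mice on the left and WT mice on the right. Lines join mice with the same replicate number and black bars are group means. The groups are apart for Fgf21 (5.60 to 5.90 against 5.11 to 5.25) and Fgf13 (4.98 to 7.56 against 7.95 to 10.11) and overlap for the other 6, and the mice numbered 4 are lowest of their genotype for Klb and Stc2.

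Fgf1 encodes a ligand of all FGF receptors that is known in mouse fat as a PPARγ target needed for remodelling on a high fat diet. Its values were 10.52, 10.56, 10.60 and 10.22 in Sel1l-/- mice 1 to 4, and 10.48, 10.33, 10.50 and 10.88 in WT mice 1 to 4. The mice numbered 4 were the lowest Sel1l-/- and the highest WT array, and the other 6 lay between them. The log2 fold change was -0.07 with a 95% interval of -0.37 to 0.22 (limma adjusted p = 0.845). It was 0.01 without Sel1l-/- 4 and 0.03 without WT 4.

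Fgf10 encodes a ligand of FGF receptor 2 made by stromal cells and known to promote fat cell formation. It read 9.29, 9.01, 8.80 and 8.96 in Sel1l-/- mice 1 to 4, against 9.87, 9.40, 9.64 and 8.44 in WT mice 1 to 4. WT mice 1 to 3 lay above all Sel1l-/- mice and WT 4 lay below all of them, 1.20 log2 units under the mean of the other 3 WT mice. The log2 fold change was -0.32 with a 95% interval of -0.96 to 0.32 (limma adjusted p = 0.661), and -0.62 without WT 4 (limma adjusted p = 0.0809). Within letter F, where WT 4 is the WT mouse, the difference was 0.72, a value that rests on this 1 WT array.

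Neither stanniocalcin passed the test. Stc1, which is known to respond to hypoxia, read 8.00, 7.46, 7.58 and 7.10 in Sel1l-/- mice 1 to 4, against 7.98, 7.69, 7.72 and 7.78 in WT mice 1 to 4. The Sel1l-/- arrays spread on both sides of the WT arrays, with Sel1l-/- 4 the lowest. The log2 fold change of Stc1 was -0.26 with a 95% interval of -0.65 to 0.13 (limma adjusted p = 0.541).

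Stc2 read 8.51, 8.11, 8.20 and 7.29 in Sel1l-/- mice 1 to 4, against 8.72, 8.13, 8.12 and 7.88 in WT mice 1 to 4. The groups overlapped, and the mouse numbered 1 was the highest and the mouse numbered 4 the lowest of each genotype. The log2 fold change was -0.18 with a 95% interval of -0.80 to 0.43 (limma adjusted p = 0.807), so a rise of more than 1.34-fold lay outside the interval, while the interval of Fgf21 began at 1.29-fold. With the replicate number as a block the interval of Stc2 was -0.46 to 0.09 (limma adjusted p = 0.419). Whether Fgf21 and Stc2 differ in their response was not tested.

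**Figure D3:**
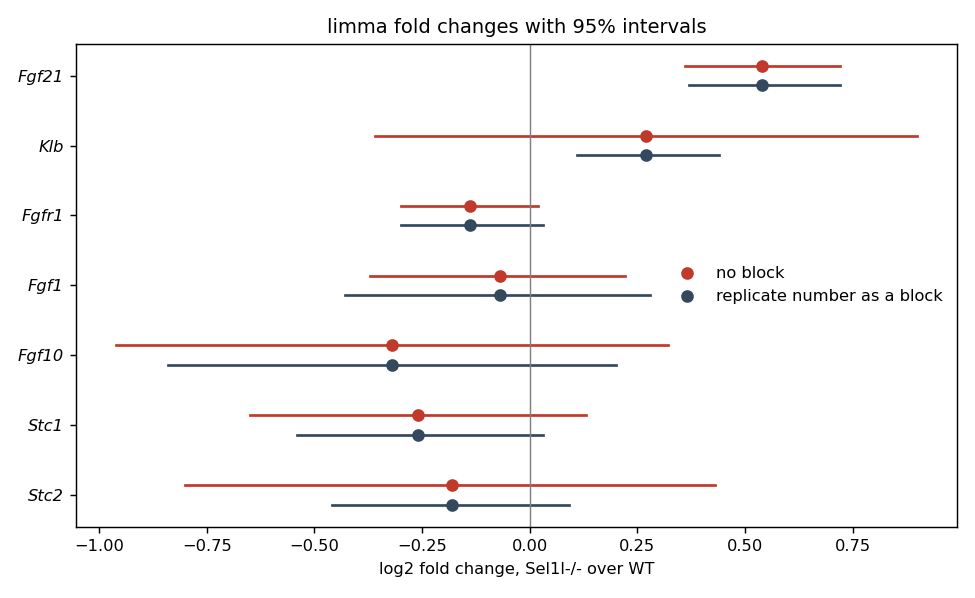
Log2 fold changes, Sel1l-/- over WT (x axis, log2 units), of the 7 measured genes (y axis) with 95% limma intervals, without a block (red) and with the replicate number as a block (dark). The interval of Fgf21 lies above 0 in both fits. That of Klb narrows to 0.11 to 0.44 with the block, at a limma adjusted p of 0.0842, and the others span 0 in both. The pairs of the block were read from these same values.

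The genes around the 7 were described by 12 lists of ligands, receptors, signalling genes and regulators. Together they held 178 measured genes other than the 7, of which 3 were higher and 1 was lower, or 2.25%, against 1.72% of all genes. With the replicate number as a block, 7 were higher and 13 lower, or 11.2%, against 3.85% of all genes. No label pairs the mice, and the pairs were read from these same values, so calls seen only with this block are a description.

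Among the regulators of Fgf21 transcription, 2 of 18 measured genes rose and 0 fell, against 1.04% and 0.685% of all genes. The median log2 fold change was 0.08. The list was written with earlier results of these data known, so the count is a description. Atf4, the transcription factor of the integrated stress response, read 8.94, 8.77, 8.91 and 8.53 in Sel1l-/- mice 1 to 4, against 8.28, 7.96, 7.92 and 8.10 in WT mice 1 to 4. The groups did not overlap, and Atf4 rose 1.65-fold (limma adjusted p = 0.0231), with a log2 fold change of 0.72 and a standard error of 0.11. Ern1, the gene of the ER stress sensor IRE1α, rose 1.33-fold (log2 fold change 0.41, limma adjusted p = 0.019), with 8.73 to 8.80 in Sel1l-/- arrays and 8.30 to 8.50 in WT arrays. With each array left out in turn, Atf4 passed in 3 of 8 fits (limma adjusted p at most 0.0818, without Sel1l-/- 3) and Ern1 in 2 of 8 (at most 0.0711, without Sel1l-/- 2). With the replicate block 3 of the 18 were higher and 2 lower, where 3.85% of all genes passed in either direction. The 3 genes that the block added were picked after their values were seen. Eif2ak3, the gene of the sensor kinase PERK that acts upstream of ATF4, had a log2 fold change of 0.46 (limma adjusted p = 0.0691, and 0.033 with the block). Rxra, a nuclear receptor that pairs with PPARs, had one of -0.32 (limma adjusted p = 0.264, and 0.0362 with the block), and Ppargc1a, the coactivator PGC-1α, one of -0.70 (limma adjusted p = 0.287, and 0.0481 with the block). Ddit3, Atf5, Eif2s1 and Nr1d1 had no probe set of their own and are not analysed here.

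None of the 19 other FGF ligand genes passed the test, with a median log2 fold change of -0.04, but 1 of them had the largest difference of any gene in the lists. Fgf13 belongs to the FGF homologous factors, which are not secreted and bind voltage-gated sodium channels. It read 4.98, 5.91, 5.83 and 7.56 in Sel1l-/- mice 1 to 4, against 7.95, 9.26, 8.50 and 10.11 in WT mice 1 to 4. Every Sel1l-/- array lay below every WT array, and in each genotype mouse 1 was lowest and mouse 4 highest. The means were 6.07 ± 1.08 in Sel1l-/- and 8.95 ± 0.94 in WT mice (SD, n = 4 each), which is 7.38-fold lower in Sel1l-/- (log2 fold change -2.88 ± 0.60, SE; limma adjusted p = 0.0582). The pairs differed by -2.97, -3.35, -2.66 and -2.56. With the replicate number as a block the standard error was 0.13 and the limma adjusted p was 0.00314. Fgf9, a secreted ligand picked after its values were seen, also passed with that block (log2 fold change -0.42, limma adjusted p = 0.327 without it and 0.033 with it). Fgf2, basic FGF, had a log2 fold change of -0.74 (limma adjusted p = 0.18), and its 4 Sel1l-/- arrays, 9.17 to 9.40, overlapped with WT 4 at 9.35.

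Of the other receptors and klothos, 0 of 5 passed, and 4 of the 5 had negative fold changes. Fgfr2, the receptor of FGF10 and FGF7, had a log2 fold change of -0.44 (limma adjusted p = 0.203) and Fgfr3 one of -0.33 (limma adjusted p = 0.299). Among 20 measured carriers, heparan sulfate genes and the protease Fap, 0 passed and the median was -0.08. Gpc6, a glypican, had a log2 fold change of -0.48 (limma adjusted p = 0.102, and 0.0379 with the replicate block), and Sdc2, a syndecan, had one of -0.39 (limma adjusted p = 0.106, and 0.0423 with the replicate block).

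The intracellular path of FGF receptors to the kinase ERK was near 0, with 0 of 13 measured genes past the test and a median of -0.01. Its fold changes ran from -0.19 for Plcg1, a phospholipase bound by the receptor (limma adjusted p = 0.315), to 0.18. Braf, a kinase of the ERK cascade, had a log2 fold change of 0.16 (limma adjusted p = 0.239). Of 18 measured feedback and response genes of ERK, 0 passed, with a median of 0.08. Il17rd, a membrane inhibitor of FGF signalling, had a log2 fold change of -0.34 (limma adjusted p = 0.222) and Etv5, a transcription factor induced by FGFs, one of 0.31 (limma adjusted p = 0.252). With the replicate block 1 was higher, Dusp4, a phosphatase of ERK picked after its values were seen (log2 fold change 0.37, limma adjusted p = 0.679, and 0.0429 with the block). Of 10 measured genes reported to respond to FGF21 in fat, 0 passed, with a median of 0.10, and with the replicate block 0 were higher and 2 lower. These were Ppargc1a, with the values given above, and Adipoq. Adipoq, the gene of adiponectin, had a log2 fold change of -0.56 (limma adjusted p = 0.0753, and 0.0204 with the replicate block), with 11.80 to 12.33 in Sel1l-/- arrays and 12.53 to 12.89 in WT arrays. Elovl3, a fatty acid elongase of thermogenic fat, had one of 0.74 (limma adjusted p = 0.098).

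On the GDF15 side, 0 of 10 measured genes of its receptor, processing and p53 response passed, with a median of 0.12. Klf4, a stress-responsive transcription factor, had a log2 fold change of -0.44 (limma adjusted p = 0.176) and Mdm2, the p53 ubiquitin ligase, one of 0.27 (limma adjusted p = 0.278). Among 31 measured ligands of the TGF-β family, to which GDF15 belongs, 0 passed and 21 had negative fold changes. Bmp4, a ligand that promotes commitment to the fat cell lineage, had a log2 fold change of -0.58 (limma adjusted p = 0.0547, and 0.0496 with the replicate block). It read 9.53 to 9.66 in Sel1l-/- arrays and 9.96 to 10.49 in WT arrays. Inhbb, an activin subunit, had a log2 fold change of -0.56 (limma adjusted p = 0.108, and 0.0478 with the replicate block). The same block made 1 of the 31 higher, Gdf3, picked after its values were seen (log2 fold change 0.85, limma adjusted p = 0.292, and 0.0467 with the block).

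In the stanniocalcin and IGF axis, 1 of 14 genes fell and 0 rose, against 0.685% and 1.04% of all genes. The median was -0.10. Igfbp5, an IGF binding protein that PAPP-A2 cleaves, read 10.57, 10.67, 10.81 and 10.35 in Sel1l-/- mice 1 to 4, against 11.33, 11.21, 10.95 and 11.28 in WT mice 1 to 4. The groups did not overlap, and Igfbp5 was 1.51-fold lower in Sel1l-/- (log2 fold change -0.59 ± 0.12, SE; limma adjusted p = 0.0475). The call was lost with the replicate block (limma adjusted p = 0.0661) and, with each array left out in turn, in 7 of 8 fits (at most 0.138, without WT 1). With that block 2 other genes, picked after their values were seen, were lower instead. They were Igf2, a growth factor (log2 fold change -0.57, limma adjusted p = 0.186, and 0.0464 with the block), and Igfbp3, an IGF binding protein (log2 fold change -0.41, limma adjusted p = 0.281, and 0.0363 with the block). None of 9 measured angiopoietin and angiopoietin-like genes and their receptors passed, with a median of -0.35. The lowest p belonged to Tek and Tie1, the endothelial receptors of that family, at -0.35 (limma adjusted p = 0.0632, and 0.0437 with the replicate block) and -0.36 (limma adjusted p = 0.102). Both are also in the endothelial marker list given above, which was lower on all Sel1l-/- arrays, and its part in these values was not tested.

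Among 16 genes listed as other secreted factors linked to stress, 1 rose and 0 fell, against 1.04% and 0.685% of all genes. The median was 0.04. The 1 that rose, Sdf2l1, encodes a protein of the ER, and no other gene of the list passed. Sdf2l1, an ER protein that works with the chaperone BiP, read 11.56, 11.56, 11.29 and 11.69 in Sel1l-/- mice 1 to 4, against 9.72, 10.39, 9.96 and 10.54 in WT mice 1 to 4. It rose 2.59-fold (log2 fold change 1.37 ± 0.18, SE; limma adjusted p = 0.0103) with no overlap between the groups, and it passed with each of the 8 arrays left out in turn (limma adjusted p at most 0.0472). With the replicate block 2 were higher and 1 lower, the added genes being picked after their values were seen. Manf, a secreted ER stress protein, had a log2 fold change of 0.66 (limma adjusted p = 0.0598, and 0.0266 with the block), and Vegfa, an angiogenic growth factor, one of -0.48 (limma adjusted p = 0.399, and 0.0457 with the block).

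**Figure D4:**
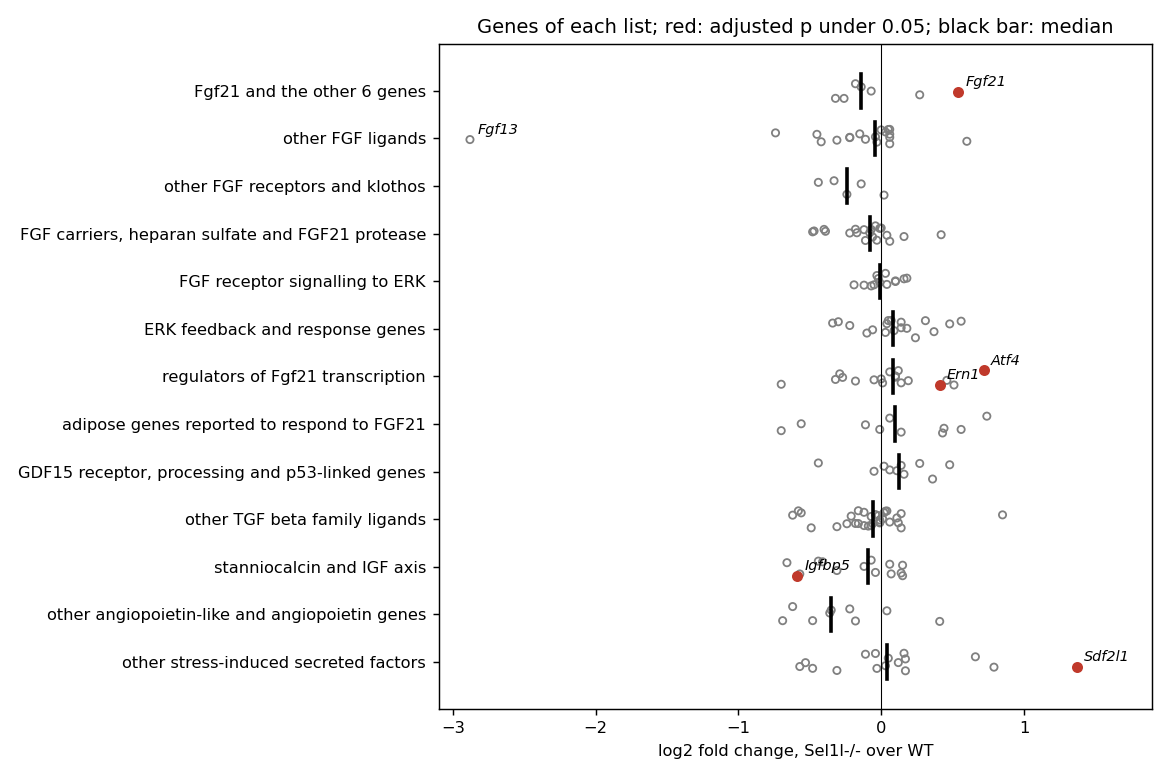
Log2 fold changes, Sel1l-/- over WT (x axis, log2 units), of the 7 measured genes and of the genes of 12 related lists (y axis), 1 point per gene with small vertical offsets for sight. Red points have a limma adjusted p under 0.05 and black bars are medians. The red points are Fgf21, Ern1, Atf4, Igfbp5 and Sdf2l1, most medians lie near 0, and Fgf13 stands alone at -2.88 as an open point.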

How the data were processed

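Per the submitters' processing notes, the authors used RMA, that is, background correction, quantile normalization and a summary of probes into probe sets. The log2 scale of the deposited table was read from its values (1.72 to 13.9) and is not stated in words. After RMA, a shift of most transcripts 1 way would not show and differences of dim genes are compressed. The version of RMA is not given in the sources used here. No further scaling was done. Of 35556 probe sets, 21218 named 1 gene in the platform annotation, 1881 named several and 12457 were unnamed; 21185 of the first had an Entrez number in RefSeq GRCm38.p6. The brightest single-gene probe set stood for each of 18820 genes. Each of the 7 measured genes had 1 probe set.

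Groups were compared with limma 3.58.1 (lmFit and eBayes, R 4.3.3) over all genes, two-sided. P-values were adjusted by Benjamini and Hochberg's method over the whole table, and a gene was called at an adjusted p under 0.05. The fit was run on simulated data, with values drawn independently for each mouse and changes larger than that of Fgf21. That run does not cover a change as small as that of Fgf21 or values shared between mice. Intervals are 95%, and the number of arrays limits the precision. Replicates are separate mice. Figures were made with Python 3.11.15 and matplotlib 3.10.9.

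Genes were named by rule: Sel1l, the measured genes of the set, and in each related list up to 4 genes past the threshold or, with none, the 2 of smallest p, and the 3 genes nearest in pattern to Fgf21 and to Stc2. The set and the lists were chosen with earlier results of these data known. Same-numbered mice deviated together from their group means, with correlations over all genes of 0.107 to 0.524, all over 0.1, so the numbers were treated as pairs, which no label states. The highest correlation of mice of different numbers was 0.328, above the 0.107 of the mice numbered 2. Same-numbered mice share neither the letter nor the number of the mouse code. As the pairs were read from the values that the block then tests, calls that need the block are not separate evidence. The alternatives were this block, median centring, blocks by the letter or number of the mouse code, filters on dim genes, array weights, a trended robust prior, the mean of all probe sets of a gene, and leaving out each array.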

Additional observations from a re-analysis of the deposited data

Results flagged for a closer look

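A gap to the nearest array larger than the usual limit for 4 values was looked for in 72 groups of 4 arrays, and 2 were found, where chance gives about 5%, or 3.6 groups. Neither concerned Fgf21 or the other genes of the set. Elovl3 read 5.73 in Sel1l-/- 1, far above the other Sel1l-/- arrays, whose highest was 4.95. Sdc2 read 10.24 in WT 3, above the other WT arrays, whose highest was 10.04.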

How the results depend on the processing

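The sign of the Fgf21 difference was the same under every alternative that measured it. As its groups do not overlap, leaving out an array or adding a block could not turn that sign. Leaving out the dimmer 50% of genes also left out Fgf21, so no gene of the set was higher there. The count was also 0 with the mouse code's letter or number as a block, and 0 to 1 when 1 array was left out (0 without WT 1 or WT 2). The log2 fold change was 0.48 to 0.58 without 1 array, 0.63 with the letter block and 0.52 with the number block. Sel1l was -0.98 with the letter block (limma adjusted p = 0.151) and -0.80 with the number block (0.0813). With the letter block every difference comes from letter F alone, that is, from Sel1l-/- 1 and 2 against WT 4. Uncalled signs turned with the letter block for Fgfr1 (0.02), Fgf10 (0.72), Stc2 (0.44), Fgf2 (0.02), Npr3 (0.13), Rnf19a (0.10) and Pakap (0.40). They turned with array weights for Fgf1 (0.04), and without 1 array for Fgf1 (-0.15 to 0.03), Stc2 (-0.35 to 0.06) and Npr3 (-0.11 to 0.03). The causes were not tested. Of 324 genes called, the count was 725 with the replicate block, 20 with the letter block, 11 with the number block, 566 with array weights and 100 to 336 without 1 array, which also leaves fewer arrays. With arrays centred on their medians 119 were higher and 154 lower, against 195 and 129. Of the related genes, 3 higher and 1 lower became 7 and 13 with the replicate block, 0 and 0 with the letter or the number block, 5 and 5 without the dimmer 50% of genes, and 1 to 5 and 0 to 3 without 1 array. The lower count was 2 on centring, without the dimmest 25% of genes and with the trended prior, and 6 with array weights. The replicate block changed no call of the 7 genes.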

Other observations

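The pattern of Fgf21 over the 8 arrays, each gene centred on its mean and divided by its SD, lay nearest to those of Usp9x, Golph3l and Vps8. Their root mean square differences from it were 0.173, 0.176 and 0.201 SD, where the median over all other genes was 1.34 SD. These genes were chosen for that likeness, so their values are a description with no test. Golph3l read 10.49 to 10.64 in Sel1l-/- arrays and 10.21 to 10.30 in WT arrays, a log2 fold change of 0.32, and Usp9x and Vps8 had log2 fold changes of 0.18 and 0.23. The pattern of Stc2 lay nearest to those of Npr3, the clearance receptor of natriuretic peptides, Rnf19a and Pakap, at 0.152, 0.162 and 0.196 SD. Their log2 fold changes were -0.06, -0.08 and -0.29.

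All 10 macrophage markers had positive fold changes, with a median of 0.37 and 0 past the threshold, and their mean level was 9.96 to 10.90 in Sel1l-/- arrays and 9.57 to 10.47 in WT arrays. All 6 mesothelial markers had negative fold changes, with a median of -0.37 and 0 past the threshold.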
